A study of Homo sapiens with 6 samples.

Results

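Transcripts of 10 genes that mark or drive the epithelial-mesenchymal transition (EMT) were followed across 3 human lung cancer cell lines. The genes were chosen by name as markers and transcription factors of the transition, with earlier results of these data known. All 10 were found among the 26485 genes of the deposited library tables. They are the structural genes VIM and FN1, the cadherins CDH1 and CDH2, and the transcription factors SNAI1, SNAI2, TWIST1, TWIST2, ZEB1 and ZEB2.

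In the transition, epithelial cells give up their cell-to-cell contacts and take on a motile, mesenchymal shape. E-cadherin holds epithelial neighbours together, and repressors of the SNAI and ZEB families silence its gene by binding short DNA motifs called E-boxes, while TWIST factors act in the same programme. Carcinoma cells often carry epithelial and mesenchymal transcripts side by side, and vimentin is used in lung cancer as a marker of the mesenchymal side.

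Messenger RNA was measured in 6 libraries, 2 of PC9-BrM4, 2 of PC9-AMG and 2 of PC9 cells. All 3 groups were labelled as human lung cancer cells cultured in MGS, and no other agent, genotype or time was given. PC9 is an established human lung adenocarcinoma line. The labels did not spell out MGS, did not say how PC9-BrM4 or PC9-AMG was made or whether either is a clone, and did not say whether the 2 libraries of a line came from separate cultures, so the p-values measure the spread between these libraries, which may be technical.

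Levels are given as TPM, a transcript abundance scaled by transcript length and to the same total in every library. This lets levels of different genes be set side by side, but with less certainty for ZEB1, ZEB2, TWIST2, FN1 and CDH2, as given below. Each library held 13848 to 14171 genes at 1 TPM or more, and the log2 values of the libraries correlated at 0.986 to 0.990 within a line and 0.967 to 0.981 between lines. Read counts were not analysed here, so the total depth of each library is unknown. The deposited coverage gives the mean reads per base of a gene, which was 66.5 to 171 for VIM, 56.7 to 101 for CDH1 and 11.3 to 17.4 for FN1 over the 6 libraries, and at most 6.60 for the other 7 genes. Epithelial markers were high, with the adhesion protein gene EPCAM at 846 and 856 TPM in PC9-BrM4, 634 and 741 TPM in PC9-AMG and 705 and 698 TPM in PC9. The 8 epithelial markers summed to 11197 to 11743 TPM in PC9-BrM4, 13221 to 13709 TPM in PC9-AMG and 15136 to 15398 TPM in PC9, mostly from keratins. The lung markers SFTPB and NKX2-1 were listed at 0 or near 0 in every library. The library names carried the word mix, which the labels did not explain. The 7 astrocyte markers summed to 20.7 to 23.5 TPM in PC9-BrM4, 30.3 to 34.0 TPM in PC9-AMG and 22.4 to 23.7 TPM in PC9, mostly from ALDH1L1, at 18.3 to 32.8 TPM, while GFAP and S100B were listed at 0 in all 6 libraries. SLC1A3 was at 3.44 and 2.12 TPM in PC9-BrM4, 0.652 and 0.361 TPM in PC9-AMG and listed at 0 in both PC9 libraries. The 7 microglia and leukocyte markers summed to 16.5 to 18.2 TPM in PC9-BrM4, 13.04 to 16.4 TPM in PC9-AMG and 10.4 to 10.8 TPM in PC9. CSF1R, at 6.81 to 9.96 TPM, and ITGAM, at 3.36 to 8.54 TPM, made up nearly all of that sum, while AIF1, CX3CR1, P2RY12 and TMEM119 were listed at 0 in all 6 libraries. The part of such cells in the results was not tested.

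Of the 10 genes, 9 reached 1 TPM in at least 2 libraries and were tested, and ZEB2 did not. Differences are of log2(TPM + 1), which understates the change of genes near 1 TPM, and a gene was called where the adjusted p (limma, Benjamini-Hochberg over 14627 tested genes) was under 0.05. In PC9-BrM4 against PC9, 4 of the 9 genes were called, VIM and TWIST2 higher and SNAI2 and CDH2 lower, where 16.3% of all tested genes were called, 9.89% higher and 6.45% lower. In PC9-AMG against PC9, 3 genes were called, VIM, SNAI2 and ZEB1, each lower, against a background of 7.49% (3.67% higher and 3.82% lower). Of these, ZEB1 passed the 1 TPM filter only through the PC9 libraries, where it was highest. Its deposited coverage was at most 0.0705 reads per base. In PC9-AMG against PC9-BrM4, 3 genes were called, VIM, CDH1 and TWIST2, each lower, against a background of 18.6% (6.31% higher and 12.3% lower). The median log2 difference of the 9 genes was -0.08, -0.44 and -0.25 in these 3 comparisons, beside 0.09, -0.05 and -0.13 over all tested genes. The comparisons share libraries, so they are not independent of each other. The genes were chosen with earlier results of these data known, so their share of calls beside the background is a description and was not tested.

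**Figure D1:**
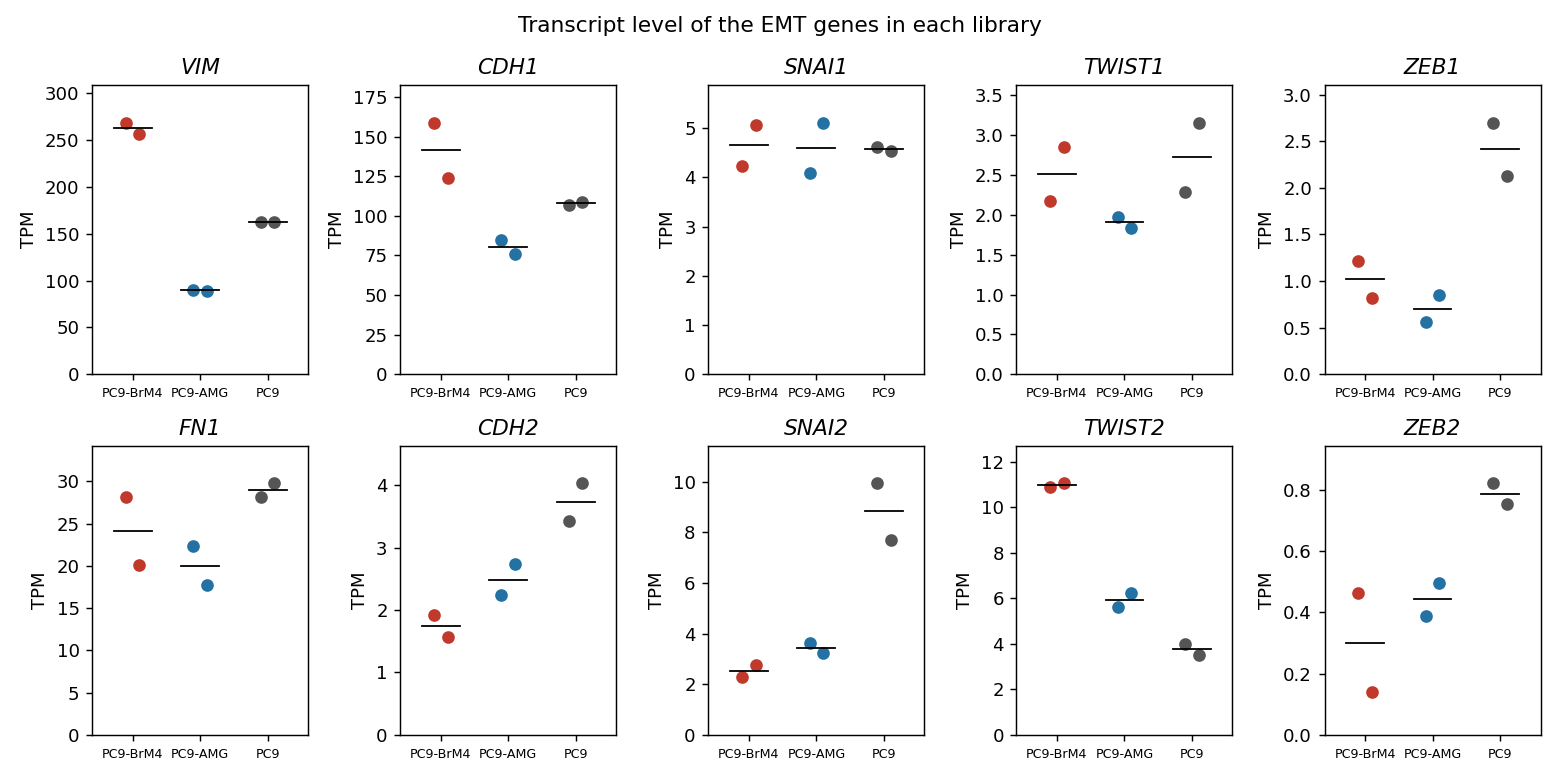
TPM of the 10 genes in each library, on linear axes that start at 0, with PC9-BrM4 left, PC9-AMG in the middle and PC9 right. Each point is 1 library and each bar the mean of 2. VIM separated the 3 lines without overlap, SNAI2 and ZEB1 lay highest in PC9, and the 3 lines overlapped for SNAI1.

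VIM encodes vimentin, the intermediate filament protein of mesenchymal cells (chr10:17228259-17237593, plus strand, hg38). It was at 269 and 257 TPM in PC9-BrM4, 90.1 and 88.7 TPM in PC9-AMG and 163 and 162 TPM in PC9. The 2 libraries of each line lay close together and no line overlapped another, with PC9-BrM4 highest and PC9-AMG lowest. VIM rose by a log2 difference of 0.69 ± 0.09 (SE) in PC9-BrM4 against PC9 (limma adjusted p = 0.000674), or 1.61-fold on the TPM + 1 scale. It fell by 0.86 ± 0.09 in PC9-AMG against PC9 (limma adjusted p = 0.00128), or 1.81-fold. The largest gap was between PC9-AMG and PC9-BrM4, at -1.54 ± 0.09 (limma adjusted p = 8.33e-06), or 2.92-fold lower in PC9-AMG. In bulk RNA, fewer cells holding a transcript and less of it per cell cannot be told apart. All 3 VIM calls held in each of the 19 alternative analyses run.

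The stretch of 250 bases before the RefSeq start of VIM (chr10:17227991-17228240, plus strand, GRCh38.p14) is shown because VIM was called in all 3 comparisons. Capitals mark its GC box, GGGCGG, which begins at position -46 from that start.
VIM: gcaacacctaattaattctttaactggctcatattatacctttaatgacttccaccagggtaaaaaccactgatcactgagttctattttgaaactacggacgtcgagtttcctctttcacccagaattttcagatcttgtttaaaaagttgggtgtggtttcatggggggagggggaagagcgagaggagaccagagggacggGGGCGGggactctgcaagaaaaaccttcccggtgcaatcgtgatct
The E-box letters CACCTG or CAGGTG occurred on neither strand of the 300 bases around the RefSeq start of VIM. Over 35116 human promoters of that length, 20.6% held an E-box and 45.0% a GC box on either strand.

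VIM-AS1, an antisense RNA gene whose annotated span overlaps the start of VIM (chr10:17214239-17229985, minus strand), was at 20.9 and 18.7 TPM in PC9-BrM4, 10.8 and 10.2 TPM in PC9-AMG and 18.4 and 17.3 TPM in PC9. PC9-AMG was low and apart, while PC9-BrM4 and PC9 stood next to each other. VIM-AS1 fell by 0.85 on the log2 scale in PC9-AMG against PC9-BrM4 (limma adjusted p = 0.00273). Its fall of 0.71 in PC9-AMG against PC9 (adjusted p = 0.0168) was no longer called without either PC9 library or either PC9-AMG library (adjusted p 0.0582 to 0.174). The log2 difference of 0.14 in PC9-BrM4 against PC9 did not pass the test (adjusted p = 0.531). The ratio of VIM to VIM-AS1 was 12.9 and 13.7 in PC9-BrM4, 8.36 and 8.66 in PC9-AMG and 8.84 and 9.36 in PC9, higher in both PC9-BrM4 libraries than in the other 4. The libraries were made with a stranded kit, but the sources used here do not say that strand was used in counting, so reads of the overlap may be shared between the 2 genes.

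FN1 encodes fibronectin, a matrix glycoprotein that rises in the mesenchymal state (chr2:215360440-215436070, minus strand). It was at 28.1 and 20.1 TPM in PC9-BrM4, 22.3 and 17.7 TPM in PC9-AMG and 28.2 and 29.8 TPM in PC9. Both PC9-AMG libraries lay below both PC9 libraries, 1 PC9-BrM4 library was level with PC9, and PC9-BrM4 and PC9-AMG overlapped. The log2 difference was -0.27 in PC9-BrM4 against PC9 (95% interval -0.66 to 0.11), -0.52 in PC9-AMG against PC9 (-0.91 to -0.13) and -0.25 in PC9-AMG against PC9-BrM4 (-0.63 to 0.14). The limma adjusted p was 0.325, 0.0983 and 0.339, and no call was made.

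CDH1 encodes E-cadherin, the adhesion molecule of epithelial adherens junctions (chr16:68737292-68835541, plus strand). It was at 159 and 124 TPM in PC9-BrM4, 84.5 and 75.6 TPM in PC9-AMG and 107 and 109 TPM in PC9. The lines kept the order seen for VIM, PC9-BrM4 above PC9 above PC9-AMG, with no overlap but with a wide gap between the 2 PC9-BrM4 libraries. CDH1 fell by 0.80 ± 0.13 in PC9-AMG against PC9-BrM4 (limma adjusted p = 0.00246), and this call held in all 19 alternatives. The log2 difference of 0.38 in PC9-BrM4 against PC9 (95% interval 0.10 to 0.66, limma adjusted p = 0.0711) was not called, and was called in 4 of the 19 alternatives. With 1 library left out it was 0.20 to 0.55. The difference of -0.43 in PC9-AMG against PC9 (95% interval -0.71 to -0.15, limma adjusted p = 0.0667) was not called either, and was called in 6 of the 19 alternatives. With 1 library left out it was -0.51 to -0.35.

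CDH2 encodes N-cadherin, which replaces E-cadherin in the classical cadherin switch (chr18:27950963-28177446, minus strand). It was at 1.92 and 1.57 TPM in PC9-BrM4, 2.24 and 2.74 TPM in PC9-AMG and 3.43 and 4.03 TPM in PC9. The level was low in every library, highest in PC9 and lowest in PC9-BrM4, with no overlap between lines. CDH2 fell by 0.79 ± 0.21 in PC9-BrM4 against PC9 (limma adjusted p = 0.0318). That call was lost without any 1 of the 4 libraries compared (adjusted p 0.0649 to 0.217) and without a filter on low values (adjusted p = 0.0517). The log2 differences of -0.44 in PC9-AMG against PC9 (adjusted p = 0.223) and 0.35 in PC9-AMG against PC9-BrM4 (adjusted p = 0.272) were not called.

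Within a library, CDH1 exceeded CDH2 by a ratio of 82.7 and 78.9 in PC9-BrM4, 37.7 and 27.6 in PC9-AMG and 31.2 and 27.0 in PC9. The ratio in PC9-BrM4 lay far above those of the other lines, and PC9-AMG overlapped PC9. It divides by the low level of CDH2, at 1.57 to 1.92 TPM in PC9-BrM4, and was not tested. The limits of the CDH1 and CDH2 differences given above hold for it too. The ratio of VIM to CDH1 was 1.69 and 2.07 in PC9-BrM4, 1.07 and 1.17 in PC9-AMG and 1.52 and 1.49 in PC9. Vimentin transcript thus exceeded E-cadherin transcript in all 6 libraries, and the 3 lines did not overlap in this ratio. The ratio of CDH1 to CDH3, the placental cadherin that epithelia also make, was 1.38 and 1.18 in PC9-BrM4, 1.04 and 1.06 in PC9-AMG and 1.14 and 1.14 in PC9.

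**Figure D2:**
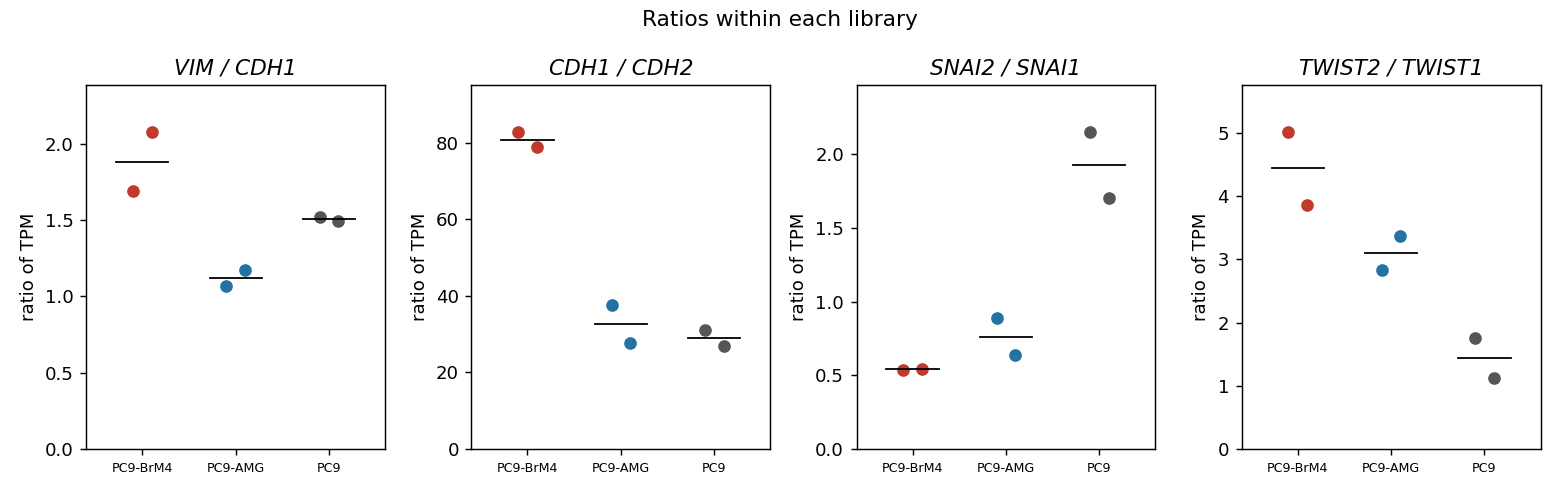
Ratios of TPM within each library for 4 gene pairs, on linear axes that start at 0, with PC9-BrM4 left, PC9-AMG in the middle and PC9 right. Points are libraries and bars are means of 2. CDH1 over CDH2 was 78.9 and 82.7 in PC9-BrM4 and at most 37.7 elsewhere, and SNAI2 over SNAI1 was at least 1.70 in PC9 and at most 0.888 elsewhere. CDH2 was low in every library, and the ratios were not tested.

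SNAI1 and SNAI2 encode the zinc finger repressors Snail and Slug, which bind E-boxes in the E-cadherin promoter. SNAI2 (chr8:48917681-48921440, minus strand) was at 2.28 and 2.76 TPM in PC9-BrM4, 3.64 and 3.24 TPM in PC9-AMG and 9.93 and 7.71 TPM in PC9. Both PC9 libraries stood far above the other 4, and PC9-BrM4 was slightly below PC9-AMG. SNAI2 fell by 1.47 ± 0.20 in PC9-BrM4 against PC9 (limma adjusted p = 0.00101), or 2.78-fold on the TPM + 1 scale, and the call held in all alternatives that tested it. It fell by 1.14 ± 0.20 in PC9-AMG against PC9 (limma adjusted p = 0.0121), or 2.20-fold. The second call was lost without the first PC9 library (adjusted p = 0.126) and without the first or second PC9-AMG library (adjusted p = 0.0565 and 0.0847), as well as without a filter (adjusted p = 0.0618). The log2 difference of 0.34 in PC9-AMG against PC9-BrM4 (95% interval -0.10 to 0.78, limma adjusted p = 0.251) was not called.

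SNAI1 (chr20:49982976-49988883, plus strand) was at 4.23 and 5.07 TPM in PC9-BrM4, 4.09 and 5.11 TPM in PC9-AMG and 4.62 and 4.53 TPM in PC9. All 3 lines overlapped. The log2 difference was 0.01 in PC9-BrM4 against PC9, 0.00 in PC9-AMG against PC9 and -0.01 in PC9-AMG against PC9-BrM4, with 95% intervals that reached from -0.43 to 0.44 over the 3 comparisons. Under other scalings of the libraries the sign changed in PC9-BrM4 against PC9 and in PC9-AMG against PC9-BrM4. In PC9-AMG against PC9 it stayed positive under those scalings and changed without the second PC9 library or the second PC9-AMG library. SNAI2 over SNAI1 was 0.539 and 0.545 in PC9-BrM4, 0.888 and 0.635 in PC9-AMG and 2.15 and 1.70 in PC9. By TPM, SNAI2 was thus the more abundant transcript of the pair in PC9 and SNAI1 in the other lines. The proteins were not measured.

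TWIST1 and TWIST2 encode basic helix-loop-helix factors of mesoderm and mesenchyme. TWIST2 (chr2:238848032-238910548, plus strand) was at 10.9 and 11.04 TPM in PC9-BrM4, 5.61 and 6.22 TPM in PC9-AMG and 4.01 and 3.52 TPM in PC9. The lines did not overlap, with PC9-BrM4 far above the others and PC9 lowest. TWIST2 rose by 1.33 ± 0.17 in PC9-BrM4 against PC9 (limma adjusted p = 0.000683), or 2.51-fold on the TPM + 1 scale, in every alternative. It fell by 0.79 ± 0.17 in PC9-AMG against PC9-BrM4 (limma adjusted p = 0.0101), a call lost without the first PC9-AMG library (adjusted p = 0.0567). The log2 difference of 0.54 in PC9-AMG against PC9 (95% interval 0.17 to 0.91, limma adjusted p = 0.0777) was not called.

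The bases from 250 before the RefSeq start of TWIST2 to the start of the gene in the deposited tables (chr2:238847835-238848031, plus strand, GRCh38.p14) are shown because TWIST2 had the largest rise among the 10 genes. Capitals mark 4 GC boxes, GGGCGG or its reverse complement CCGCCC, which begin at positions -244, -160, -154 and -93 from the RefSeq start, and a CCAAT box that begins at -105.
TWIST2: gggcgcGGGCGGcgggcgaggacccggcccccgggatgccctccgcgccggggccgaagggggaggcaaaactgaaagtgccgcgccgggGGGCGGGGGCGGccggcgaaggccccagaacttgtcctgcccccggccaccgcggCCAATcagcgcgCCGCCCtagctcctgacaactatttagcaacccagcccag
A CCAAT box was present in 34.6% of the 35116 promoters on either strand. These matches describe letters in the reference and were not measured as binding sites.

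TWIST1 (chr7:19115468-19117672, minus strand) was at 2.17 and 2.85 TPM in PC9-BrM4, 1.98 and 1.84 TPM in PC9-AMG and 2.29 and 3.16 TPM in PC9. PC9-BrM4 and PC9 overlapped, and PC9-AMG lay just below both. The log2 difference was -0.08 in PC9-BrM4 against PC9 (limma adjusted p = 0.844), -0.35 in PC9-AMG against PC9 (adjusted p = 0.366) and -0.27 in PC9-AMG against PC9-BrM4 (adjusted p = 0.428). TWIST2 exceeded TWIST1 by a ratio of 5.01 and 3.87 in PC9-BrM4, 2.84 and 3.38 in PC9-AMG and 1.75 and 1.12 in PC9, with no overlap between lines. By deposited coverage per base the ratio was 3.72 and 2.90 in PC9-BrM4, 2.12 and 2.46 in PC9-AMG and 1.31 and 0.835 in PC9, so in the second PC9 library TWIST2 was below TWIST1 by that measure. The coverage per TPM of TWIST2 was 72.8% to 74.8% of that of TWIST1 and VIM, and which of the measures gives the better level was not tested.

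ZEB1 and ZEB2 encode zinc finger and homeodomain repressors, which bind E-boxes and are held down in epithelial cells by the miR-200 family and miR-205. ZEB1 (chr10:31319172-31529814, plus strand) was at 1.21 and 0.822 TPM in PC9-BrM4, 0.555 and 0.846 TPM in PC9-AMG and 2.70 and 2.13 TPM in PC9. Both PC9 libraries were above the other 4, and PC9-BrM4 and PC9-AMG overlapped. ZEB1 reached 1 TPM only in the PC9 libraries and the first PC9-BrM4 library, so it passed the filter through the line where it was highest. ZEB1 fell by 1.01 ± 0.25 in PC9-AMG against PC9 (limma adjusted p = 0.0402). The call was lost without either PC9 library (adjusted p = 0.2505 and 0.136), without either PC9-AMG library (0.132 and 0.104) and without the first PC9-BrM4 library (0.0504). It was also lost without a filter (0.0672) and with a pseudocount of 0.1, where the log2 difference was -1.67 (adjusted p = 0.0588). The log2 difference of -0.76 in PC9-BrM4 against PC9 (95% interval -1.31 to -0.21, limma adjusted p = 0.0656) was not called, and that of -0.24 in PC9-AMG against PC9-BrM4 (adjusted p = 0.511) was not either.

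Coverage and TPM did not keep the same proportion in all 10 genes. The deposited coverage of ZEB1 was 0.0188 to 0.0705 reads per base, and its coverage per TPM was 0.0249 to 0.0338, where VIM, CDH1, SNAI1, SNAI2 and TWIST1 had 0.606 to 0.822. Set against VIM in the same library, coverage per TPM was 3.93% to 4.11% for ZEB1, 19.9% to 32.1% for ZEB2, 72.8% to 74.8% for TWIST2, 91.7% to 93.2% for FN1 and 97.4% for CDH2. The cause of this mismatch was not tested, and the levels of these 5 genes beside other genes are uncertain to that extent. The ZEB1 call in PC9-AMG against PC9 also rests on the low coverage of that gene, and its effect on the difference was not tested. ZEB2 (chr2:144384375-144520391, minus strand) was at 0.463 and 0.139 TPM in PC9-BrM4, 0.388 and 0.497 TPM in PC9-AMG and 0.821 and 0.754 TPM in PC9, below 1 TPM throughout. Both PC9 libraries were the highest for ZEB2 too, but no test was made.

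Human ZEB1 has 7 RefSeq promoter entries, of which 2 hold an E-box. The E-boxes are shown in capitals because CACCTG and its reverse complement CAGGTG are the letters that SNAI and ZEB repressors bind. The capitals begin at position -57 from the start of 1 promoter, and at -242, -85 and 33 from the start of the other (plus strand, GRCh38.p14).
ZEB1 window chr10:31318348-31318377: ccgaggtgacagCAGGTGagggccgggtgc
ZEB1 window chr10:31318966-31318991: ccccaccaCACCTGaggaaaactttt
ZEB1 window chr10:31319119-31319148: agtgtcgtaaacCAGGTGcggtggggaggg
ZEB1 window chr10:31319237-31319265: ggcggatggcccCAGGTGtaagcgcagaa
Promoter entries matched 6 of the 10 genes, with 13 promoters in all, and the other 11 promoters held no E-box. Over 35116 human promoters, 20.6% held one. CDH1, SNAI1, SNAI2 and TWIST1 had no promoter entry, so theirs were not searched.

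MIR205HG, the host gene of miR-205, was at 167 and 167 TPM in PC9-BrM4, 194 and 176 TPM in PC9-AMG and 228 and 249 TPM in PC9. It fell by 0.51 in PC9-BrM4 against PC9 (limma adjusted p = 0.00531) and by 0.37 in PC9-AMG against PC9 (limma adjusted p = 0.0415). The second call was lost in each of the 6 fits that left out 1 library (adjusted p 0.0551 to 0.365). The mature miRNA was not measured in these libraries. Its sequence, which lies within the host gene (chr1:209432166-209432187, plus strand), is shown with its seed, bases 2 to 8, in capitals, as the letters that pair with target transcripts such as those of ZEB1 and ZEB2.
hsa-miR-205-5p: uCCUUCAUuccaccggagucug

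**Figure D3:**
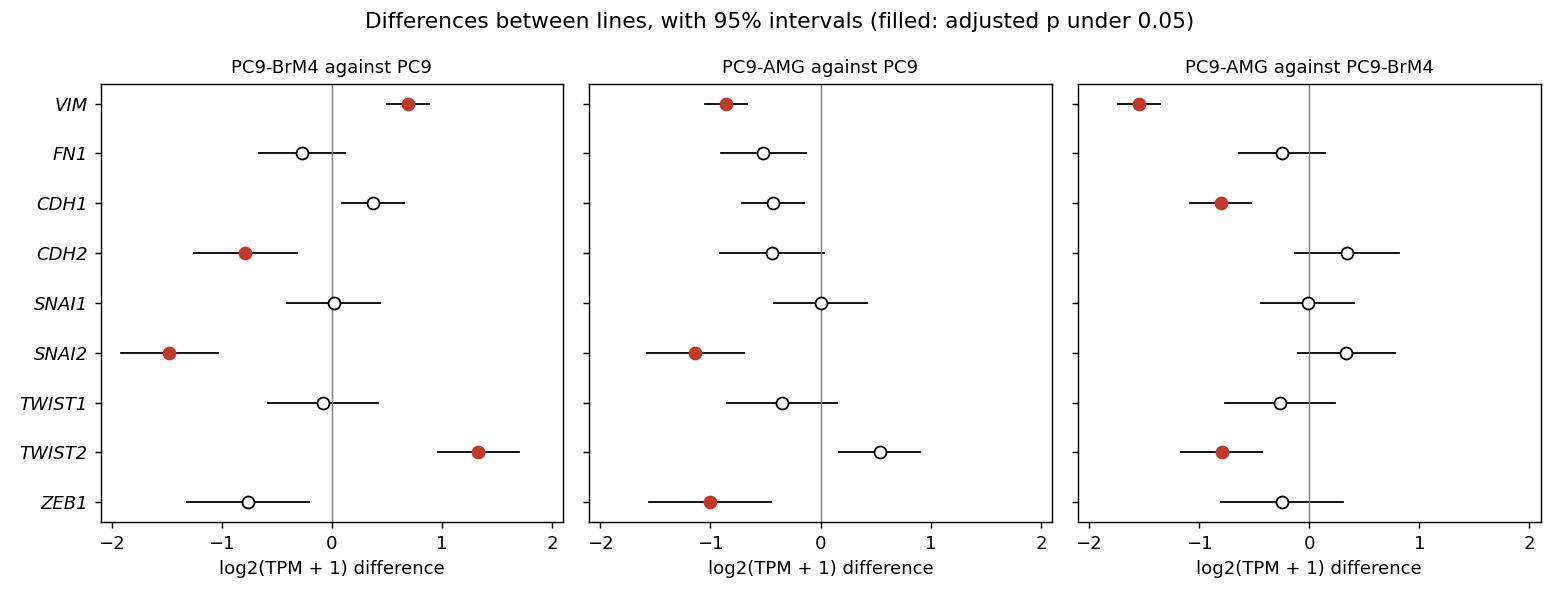
Differences of log2(TPM + 1) for the 9 tested genes in the 3 comparisons, each with its 95% interval from limma. Filled points have an adjusted p under 0.05. VIM is filled in all 3 panels, at 0.69, -0.86 and -1.54, while SNAI1 lies at 0 in each.

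By mean TPM the genes ranked VIM, CDH1 and FN1 first in each line. SNAI2 ranked 4 in PC9, at 8.82 ± 1.57 TPM (SD, n = 2), and 6 in both PC9-BrM4, at 2.52 ± 0.34 TPM, and PC9-AMG, at 3.44 ± 0.28 TPM. TWIST2 ranked 4 in PC9-BrM4, at 10.96 ± 0.11 TPM, and in PC9-AMG, at 5.91 ± 0.43 TPM, and 6 in PC9, at 3.76 ± 0.34 TPM. By TPM, the neighbours SNAI2 and TWIST1 overlapped between libraries in PC9-BrM4, and TWIST2 and CDH2, and TWIST1 and ZEB1, overlapped in PC9. By coverage, ZEB1 was at 0.0705 and 0.0549 reads per base in PC9. That lay far below TWIST1, at 1.52 and 1.98, and below ZEB2, at 0.137 and 0.129. No neighbours overlapped in PC9-AMG by TPM, but by coverage TWIST2, at 3.45 and 3.39 reads per base, lay within the range of SNAI1 there, at 3.37 and 3.83.

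Genes that work with the 10 were described from lists chosen with earlier results of these data known. For each list, the number of tested genes called is given. Over all tested genes, 9.89% were called higher and 6.45% lower in PC9-BrM4 against PC9, and 3.67% and 3.82% in PC9-AMG against PC9. In PC9-AMG against PC9-BrM4, 6.31% were called higher and 12.3% lower. Some list counts lay near these shares, no list was tested as a whole, and the shares also changed between the alternative fits. Rescaling the libraries by their medians moved the median of all genes by -0.10 in PC9-BrM4 against PC9 and by 0.17 in PC9-AMG against PC9-BrM4, and quantile normalization moved the second by 0.12 (log2). With median scaling, VIM had log2 differences of 0.59, -0.79 and -1.37, TWIST2 of 1.23, 0.61 and -0.62, SNAI2 of -1.58, -1.07 and 0.51, and CDH1 of 0.27, -0.36 and -0.63, for PC9-BrM4 against PC9, for PC9-AMG against PC9 and for PC9-AMG against PC9-BrM4. Every call of the 9 tested genes stood with that scaling, ZEB1 also became called lower in PC9-BrM4 against PC9 (adjusted p = 0.0406), and TWIST2 became called higher in PC9-AMG against PC9 (adjusted p = 0.0466).

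Of 21 other cadherins, 4 were tested and 11 were listed at 0 in all libraries. CDH3, the placental cadherin, fell by 0.53 in PC9-AMG against PC9-BrM4 (limma adjusted p = 0.00852), a call lost without the first PC9-BrM4 library (adjusted p = 0.0730), and no other call was made. CDH3 was at 115 and 105 TPM in PC9-BrM4, 81.4 and 71.1 TPM in PC9-AMG and 94.2 and 95.6 TPM in PC9, so that the lines stood in the order seen for CDH1.

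Catenins tie cadherins to actin, and nectins build the same junction. Of 13 tested genes of this kind, 3 were called higher and 1 lower in PC9-BrM4 against PC9, 2 lower in PC9-AMG against PC9, and 1 higher and 7 lower in PC9-AMG against PC9-BrM4. With median scaling, 0 were called higher and 2 lower in PC9-BrM4 against PC9, and 1 higher and 3 lower in PC9-AMG against PC9-BrM4. With 1 library left out, the higher calls in PC9-BrM4 against PC9 were 0 to 4, with 0 without either PC9 library or the first PC9-BrM4 library, and the lower calls in PC9-AMG against PC9-BrM4 were 0 to 6 and in PC9-AMG against PC9 0 to 2. PVRL3, which encodes nectin-3, was at 3.21 and 2.27 TPM in PC9-BrM4, 6.10 and 6.401 TPM in PC9-AMG and 12.1 and 11.01 TPM in PC9. It fell by 1.76 in PC9-BrM4 against PC9 (limma adjusted p = 0.000226), in every alternative. PVRL3 also fell by 0.79 in PC9-AMG against PC9 (limma adjusted p = 0.034), called in 12 of the 19 alternatives. In PC9-AMG against PC9-BrM4 it rose by 0.97 (limma adjusted p = 0.0065), called in 18 of the 19. CTNNB1, the gene of beta-catenin, was at 250.4 and 214 TPM in PC9-BrM4, 148 and 166 TPM in PC9-AMG and 184 and 174 TPM in PC9. It rose by 0.37 in PC9-BrM4 against PC9 (limma adjusted p = 0.0392), called in 9 of the 19 alternatives. It fell by 0.56 in PC9-AMG against PC9-BrM4 (limma adjusted p = 0.00621), a call lost without the first PC9-BrM4 library (adjusted p = 0.0631).

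Among 19 tested factors and genes of the epithelial state, 5 were called higher and 3 lower in PC9-BrM4 against PC9, 1 higher and 3 lower in PC9-AMG against PC9, and 4 lower in PC9-AMG against PC9-BrM4. With median scaling these counts were 2 and 3, 1 and 2, and 1 and 1, and with 1 library left out the higher calls were 1 to 5, 0 to 1 and 0, and the lower calls 1 to 3, 1 to 2 and 0 to 2. ELF3, an epithelial ETS factor, was at 144 and 149 TPM in PC9-BrM4, 174 and 159 TPM in PC9-AMG and 317 and 314 TPM in PC9. It fell by 1.10 in PC9-BrM4 (limma adjusted p = 4.26e-05) and by 0.92 in PC9-AMG (limma adjusted p = 0.00108) against PC9. EPCAM fell by 0.31 in PC9-AMG against PC9-BrM4 (limma adjusted p = 0.0332), called in 7 of the 19 alternatives. EPCAM was not called in the other comparisons. GRHL3, a grainyhead factor of surface epithelia, was at 6.95 and 5.39 TPM in PC9-BrM4, 4.64 and 3.73 TPM in PC9-AMG and 2.06 and 2.01 TPM in PC9. It rose by 1.23 in PC9-BrM4 against PC9 (limma adjusted p = 0.00324), and this call and both ELF3 calls held in all 19 alternatives. It rose by 0.77 in PC9-AMG against PC9 (limma adjusted p = 0.0489), a call lost without either PC9 library or either PC9-AMG library (adjusted p 0.112 to 0.246) and in 4 other alternatives, such as the fit without a filter (adjusted p = 0.110).

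Of 12 other tested transcription factors linked to EMT, 1 was called higher and 3 lower in PC9-BrM4 against PC9, 1 higher and 2 lower in PC9-AMG against PC9, and 1 higher and 2 lower in PC9-AMG against PC9-BrM4. With 1 library left out, the lower calls were 1 to 3, 1 to 3 and 0 to 4 in these comparisons, and the higher calls 0 to 2, 0 and 0 to 1. SOX4, an SRY-related factor that acts downstream of TGF-beta, was at 29.9 and 27.1 TPM in PC9-BrM4, 24.7 and 25.2 TPM in PC9-AMG and 52.4 and 52.5 TPM in PC9. It fell by 0.86 in PC9-BrM4 (limma adjusted p = 0.000984) and by 1.04 in PC9-AMG (limma adjusted p = 0.00194) against PC9, in all alternatives. Cofactors of the ZEB and SNAI repressors gave 1 higher call of 12 tested in PC9-BrM4 against PC9, where 9.89% of all tested genes were called higher. They gave 3 lower calls in PC9-AMG against PC9 and 2 in PC9-AMG against PC9-BrM4, where 3.82% and 12.3% of all tested genes were called lower. The first and last of these counts are near the share over all tested genes. With median scaling the counts were 0, 2 and 1. With 1 library left out these counts were 0 to 1, 1 to 3 and 1 to 3. RCOR1, a corepressor that works with the demethylase LSD1, was at 61.8 and 54.9 TPM in PC9-BrM4, 29.3 and 29.3 TPM in PC9-AMG and 56.7 and 55.0 TPM in PC9. It fell by 0.91 in PC9-AMG against PC9 (limma adjusted p = 0.00286) and by 0.97 against PC9-BrM4 (limma adjusted p = 0.00044), in all alternatives.

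Of 22 mesenchymal genes 11 were tested. In PC9-BrM4 against PC9, 5 were called higher and 3 lower, and when each library was left out in turn the counts were 4 to 6 higher and 1 to 2 lower. Their median log2 difference was 0.67, beside 0.09 over all tested genes. In PC9-AMG against PC9, 2 were called higher and 1 lower, with a median of 0.04, but with 1 library left out 1 was called higher in each fit and 0 to 1 lower. In PC9-AMG against PC9-BrM4, 4 were called lower, with a median of -0.32 beside -0.13 over all tested genes. S100A4, a calcium-binding protein of motile cells, was at 1793 and 2045 TPM in PC9-BrM4, 814 and 819 TPM in PC9-AMG and 514 and 489 TPM in PC9. It rose by 1.93 in PC9-BrM4 (limma adjusted p = 1.05e-06) and by 0.70 in PC9-AMG (limma adjusted p = 0.00232) against PC9. TAGLN, which encodes the actin-binding protein transgelin, was at 17.9 and 21.4 TPM in PC9-BrM4, 8.69 and 7.36 TPM in PC9-AMG and 6.54 and 9.16 TPM in PC9. It rose by 1.23 in PC9-BrM4 against PC9 (limma adjusted p = 0.00207), while PC9-AMG overlapped PC9. LOX, a collagen cross-linking oxidase, went the other way, with 4.68 and 4.56 TPM in PC9-BrM4, 5.999 and 6.21 TPM in PC9-AMG and 12.7 and 12.8 TPM in PC9. It fell by 1.29 in PC9-BrM4 against PC9 (limma adjusted p = 0.000544).

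Fibroblast markers stood beside these values as follows. The 7 markers summed to 16.1 to 17.9 TPM in PC9-BrM4, 9.30 to 15.6 TPM in PC9-AMG and 9.38 to 11.2 TPM in PC9. COL1A1, which the mesenchymal list also holds, was the 1 marker to reach 1 TPM, and THY1 and LUM were listed at 0. Of the 7, 2 were listed at 0 in both libraries of PC9-BrM4, against 4 in PC9-AMG and 4 in PC9. COL1A2, at 0.092 TPM, and DCN, at 0.108 TPM, were seen only in the second PC9-BrM4 library.

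Of the receptors and matrix partners of fibronectin, 8 were tested. In PC9-BrM4 against PC9, 3 were called higher and 1 lower, in PC9-AMG against PC9 1 lower, and in PC9-AMG against PC9-BrM4 1 higher and 6 lower. When each library was left out, the counts were 2 to 4 higher and 0 to 1 lower, 0 higher and 0 to 2 lower, and 0 to 1 higher and 4 to 6 lower. With median scaling, 2 were called higher and 1 lower, 0 in either direction, and 1 higher and 4 lower. FBLN1, the matrix glycoprotein fibulin-1, was at 305 and 303 TPM in PC9-BrM4, 109 and 86.3 TPM in PC9-AMG and 105 and 103 TPM in PC9. It rose by 1.53 in PC9-BrM4 against PC9 (limma adjusted p = 2.93e-05). ITGB8, an integrin subunit that activates TGF-beta, was at 40.7 and 30.7 TPM in PC9-BrM4, 11.2 and 12.9 TPM in PC9-AMG and 14.9 and 14.7 TPM in PC9, and rose by 1.20 in PC9-BrM4 against PC9 (limma adjusted p = 0.000956). Both calls held in all 19 alternatives. ITGA5, the alpha subunit of the classical fibronectin receptor, fell by 0.61 in PC9-BrM4 against PC9 (limma adjusted p = 0.0168), a call lost without any 1 of the 4 libraries compared (adjusted p 0.0507 to 0.105). Of 9 other intermediate filament and linker genes tested, 1 was called lower in PC9-BrM4 against PC9, 0 in PC9-AMG against PC9, and 1 higher and 2 lower in PC9-AMG against PC9-BrM4, none of them in all leave-one-out fits.

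**Figure D4:**
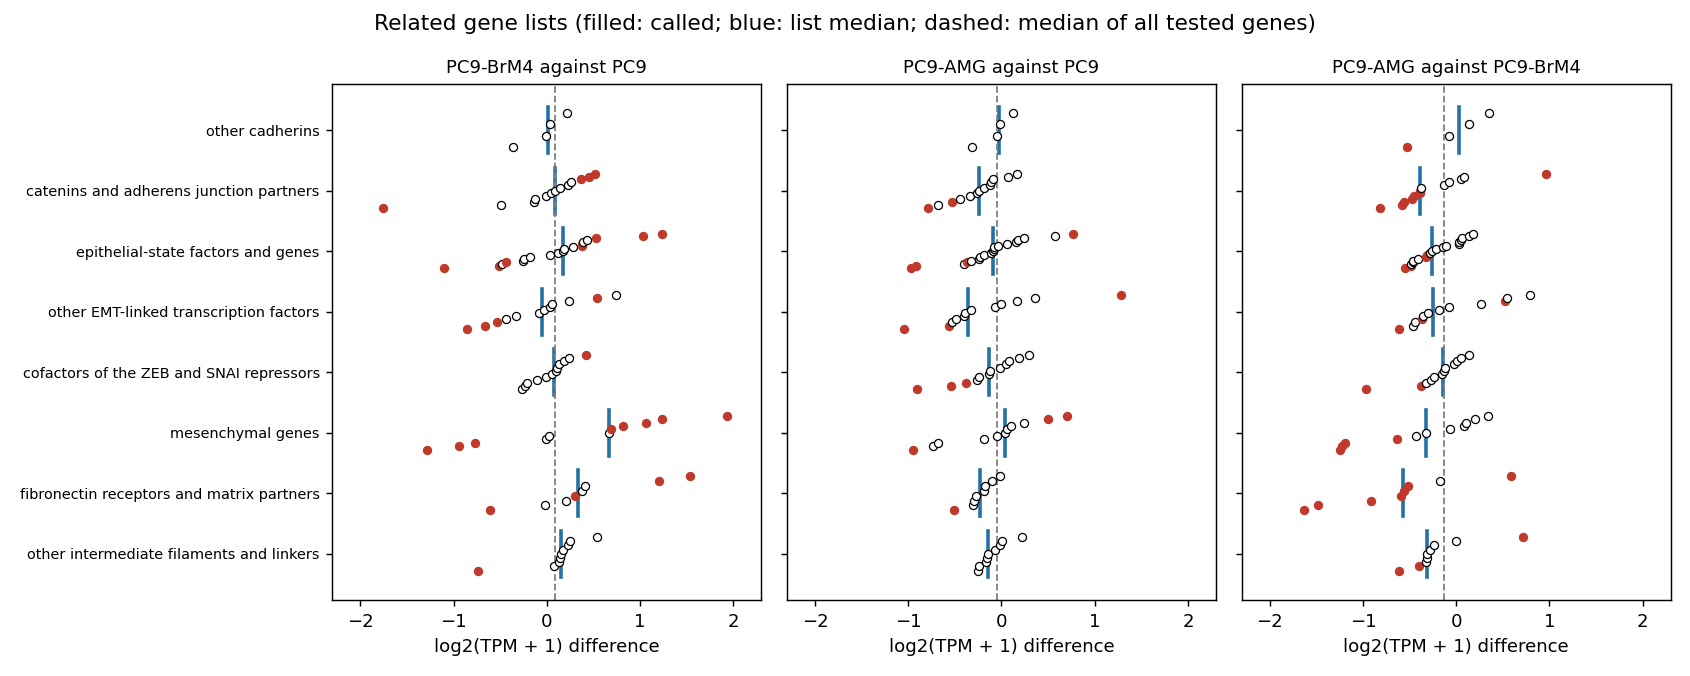
Differences of log2(TPM + 1) for the tested genes of 8 related lists in the 3 comparisons. Filled points were called, blue bars are list medians and the dashed line is the median of all tested genes. The median of the mesenchymal genes lies at 0.67 in PC9-BrM4 against PC9, right of the dashed line at 0.09.

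For each gene called in any comparison, the 3 genes of closest pattern over the 6 libraries were found by the root mean square distance of centred log2(TPM + 1) values, among tested genes with a mean of at least 5 TPM. HRASLS2, CRISPLD2 and SLC12A2 lay closest to VIM, at distances of 0.08, 0.09 and 0.09. The genes closest to CDH1 were GLG1, GPRC5B and DOCK9, at 0.05 each, and GLG1 and GPRC5B lie on chromosome 16, as CDH1 does. CTGF, ZBED2 and GPNMB lay closest to TWIST2, at 0.08, 0.08 and 0.09. ID1, LOX and PCOLCE lay closest to SNAI2, at 0.15, 0.15 and 0.17, TRIQK, WNT5A and NTN4 to ZEB1, at 0.06, 0.08 and 0.09, and ZNF277, PLEKHA5 and NFIL3 to CDH2, at 0.08 each. CTGF, a secreted growth factor-binding protein, was at 90.2 and 82.4 TPM in PC9-BrM4, 43.5 and 47.1 TPM in PC9-AMG and 34.1 and 32.8 TPM in PC9. LOX had PC9 far above the other lines, as SNAI2 did.

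**Figure D5:**
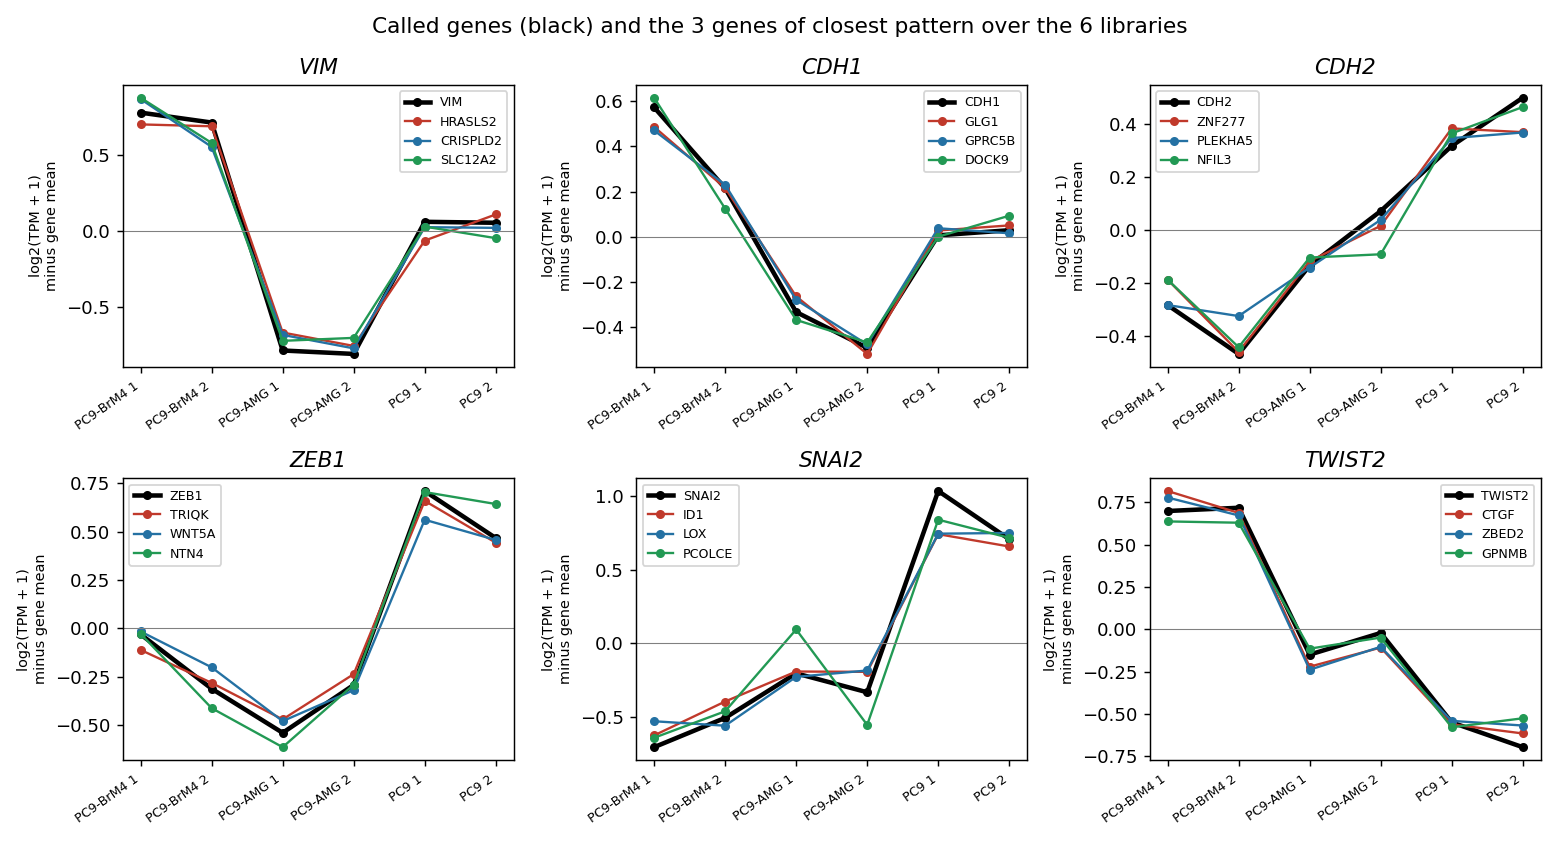
Centred log2(TPM + 1) of 6 genes (black) and, for each, the 3 genes of closest pattern, over the 6 libraries, with PC9-BrM4 left, PC9-AMG in the middle and PC9 right. The genes were picked for their likeness, so their nearness to the black lines is a description.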

How the data were processed

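RNA was extracted with TRIzol and made into libraries with a stranded mRNA kit, per the labels' protocols. HISAT2 2.1.0, StringTie 1.3.4d and the build hg38 are named in the submitters' processing notes, and the annotation is not given in the sources used here. The authors deposited coverage (signal per base), FPKM and TPM per gene and library, and a table of TPM over all libraries. Rows of the same gene (1449 genes) were summed. Read counts were not used here, so total depth is unknown and no counting interval is given. TPM sums to the same total in each library, so a gene's value also depends on all others.

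Of 26485 genes, the 14627 that reached 1 TPM in 2 or more libraries entered a fit of log2(TPM + 1) by limma (version 3.58.1, R version 4.3.3), with 1 mean per line over all 6 libraries, a variance trend, two-sided moderated tests (3 residual and 6.81 prior degrees of freedom) and Benjamini-Hochberg adjustment over all tested genes. Calls had an adjusted p under 0.05. The procedure was tested on simulated data. The alternatives changed scaling, pseudocount (0.1 or 0.5), filter, unit (FPKM), source table, moderation, replicate block and the libraries in the fit. The genes and lists were chosen with earlier results of these data known. Named in the text are the 10 genes, and genes picked with their values known from 3 sources. These were up to 4 called genes per list and comparison with the largest difference, 8 fixed genes, and the 3 genes nearest in pattern to each called gene. Of the fixed genes, GRHL2, ITGB1, CTNND1, CTNNA1 and ESRP1 are not described above. GRHL2 and ITGB1 fell by 0.55 and 0.52 in PC9-AMG against PC9-BrM4 (limma adjusted p = 0.0193 and 0.0168), called in 14 and 13 of the 19 alternatives. CTNND1 fell by 0.53 in PC9-AMG against PC9 (limma adjusted p = 0.031), called in 12 of the 19 alternatives. In PC9-AMG against PC9-BrM4 it fell by 0.39 (limma adjusted p = 0.047), called in 4 of the 19. CTNNA1 and ESRP1 were not called in any comparison. Libraries with the same number in different lines did not deviate together (correlations 0.03, -0.04 and 0.00), so numbers were not taken to pair them. Promoter and miRNA sequences are from RefSeq, GRCh38.p14.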

Additional observations from a re-analysis of the deposited data

How the results depend on the processing

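Total depth is unknown and each line has 2 libraries, so a fit that leaves 1 out assumes that the lone library varies like the others. Values are listed for PC9-BrM4 against PC9, then for PC9-AMG against PC9, then for PC9-AMG against PC9-BrM4. The called genes numbered 2389, 1096 and 2720, and 892 to 2383, 131 to 1152 and 1024 to 2886 with 1 library left out. Without a filter they numbered 1675, 250 and 1799. In PC9-AMG against PC9 they numbered 617 with the table over all libraries and 325 without a variance trend. With 1 library left out, 3 to 4, 1 to 4 and 2 to 3 of the 9 tested genes were called, against 4, 3 and 3, and without a filter 1 was called in PC9-AMG against PC9. With the replicate block, 2483, 1298 and 2905 genes were called, and 5, 4 and 3 of the 9. Median scaling split the calls into 917 higher and 1293 lower, 685 and 436, and 1606 and 900.0, against 1446 and 943, 537 and 559, and 923 and 1797. Quantile normalization gave 1088 and 1253, 671 and 561, and 1326 and 1137.

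Over single genes and alternatives, 1749 values kept direction and side of the threshold, 346 lost the call, 27 gained it and 31 changed sign, none of these called. Under median scaling, quantile normalization, FPKM and rescaling without the 100 highest genes, SNAI1 had -0.089, -0.074, -0.017 and -0.024 in PC9-BrM4 against PC9, and 0.16, 0.15, 0.064 and 0.033 in PC9-AMG against PC9-BrM4. The left-out fits spanned -0.093 to 0.12, -0.13 to 0.13 and -0.14 to 0.12 for SNAI1 over the 3 comparisons. In PC9-BrM4 against PC9 they spanned -0.25 to 0.087 for TWIST1, -0.32 to 0.049 for CTNND1, -0.030 to 0.0061 for CTNNA1 and -0.31 to 0.040 for ZEB1-AS1. In PC9-AMG against PC9, EPCAM had 0.036 with median scaling, 0.033 with FPKM and -0.15 to 0.079 in left-out fits, and ITGA5 had 0.051, 0.046 and -0.20 to 0.16. In PC9-AMG against PC9-BrM4, CTNNA1 had 0.092 with median scaling, 0.043 with quantile normalization, 0.028 with FPKM and -0.16 to 0.0012 in left-out fits, and ESRP1 had 0.028 with median scaling. The cause was not tested.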
